A study of Mus musculus with 145 samples.

Results

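The 10 genes described here are *Cdh1*, *Epcam*, *Cldn3*, *Cldn6*, *Cldn7* and *Crb3*, which build or polarise epithelial cell contacts, and *Vim*, *Cdh2*, *Zeb1* and *Snai2*, which are used as marks of mesenchymal cells. They were taken as a list of names, with earlier results of these data known, and all 10 were among the 24615 genes in the table of single-cell counts from SSC (spermatogonial stem cell) reprogramming. The tables of 17042 genes from 5C-treated and 16052 genes from DMSO-treated reprogramming, as filtered by the authors, each listed 9 of the 10, and *Snai2* was read there from the unfiltered tables. SSCs came from male pups in their first week, born to C57BL/6 females with an *Oct4*-EGFP or EGFP transgene and DBA/2 males. They were plated on fibronectin with mouse embryonic fibroblast (MEF) feeder cells that mitomycin C had stopped from dividing, and single cells were picked from colonies that looked like SSCs or like pluripotent cells.

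Reprogramming in the original medium was sampled on days 0 to 27 in 46 libraries, and the authors sorted its cells into SSC1 to SSC4, into RPG1 to RPG4, which they place on the route to pluripotency, and into fibroblast-like, neural-like, meiotic and early-pluripotency clusters off that route. The line gPSC-1 of germline-derived pluripotent stem cells at passages 1 and 15 and mouse ESCs, all held in N2B27 medium with 2iL on feeders, gave 1 library each. In a second experiment, read by the RNA arm of scTrio-seq2, 8 samples had the 5 compounds called 5C (SGC707, vitamin C, EGCG, Daphnetin and TUDCA) and 5 had the solvent DMSO. Cells of a 5C sample were collected between days 12 and 16 and those of a DMSO sample on day 20 or 24, apart from 8 cells of day 0 in DMSO replicate 5, so treatment and day cannot be told apart there.

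Epithelial cells hold together through E-cadherin, the product of *Cdh1*, whose extracellular part binds E-cadherin on the next cell, and through claudins, which seal tight junctions near the apical surface. Crumbs proteins such as that of *Crb3* help to set the apical side, and the cell surface protein EpCAM is found on many epithelia and on undifferentiated spermatogonia. Mesenchymal cells carry vimentin filaments and often N-cadherin, the product of *Cdh2*, while the repressors ZEB1 and SNAI2 bind E-box motifs and are known for turning *Cdh1* down in the epithelial-mesenchymal transition. The opposite change is a known early step when fibroblasts are reprogrammed, and mouse ESCs join E-cadherin contacts with abundant vimentin.

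Counts are of UMIs (unique molecular identifiers, which let PCR copies of a molecule count once), summed per library over the cells of a class with at least 5 cells, and levels are CPM (each sum's counts scaled to a common total of UMIs, with edgeR's TMM factors). In such sums, fewer cells with a gene and less of its RNA per cell cannot be told apart. A gene was called where edgeR's quasi-likelihood test gave a Benjamini-Hochberg adjusted p below 0.05 over all genes tested and a natural-log fold change of at least 0.5 in size. All fold changes are log2 values with the SE after the ± sign. The original libraries held 15975410 to 34609591 UMIs, the gPSC and ESC libraries 10833720 to 14807169, the 5C samples 5880942 to 10723463 and the DMSO samples 3889016 to 8061115. The classes were clustered by the authors on the same transcriptomes, members included, so that a class is not independent of the genes tested in it. The cells came from 2 batches of reprogramming, called B1 and B2 in the annotation, so the many libraries rest on 2 runs. Whether libraries of the same day within a batch came from different cultures is not stated, so the p-values measure the spread between libraries, which may be technical. By batch, RPG2 was all B2 (47 cells), RPG4 had 30 of 33 cells in B1, and RPG3 had 131 in B1 and 130 in B2. Marker sums on the route are a description. The authors named the clusters by *Oct4* (*Pou5f1*), *Nanog*, *Sox2*, *Zbtb16*, *Dazl* and *Dmrt1*, which are among the genes summed. Summed over *Pou5f1*, *Nanog*, *Sox2*, *Utf1* and *L1td1*, the level was 81.7 CPM ± 45.2 (SD, n = 36 libraries) in SSC1-4, 221 ± 103 (n = 7) in RPG1, 1857 ± 332 (n = 3) in RPG2, 1958 ± 211 (n = 8) in RPG3 and 1032 ± 192 (n = 2) in RPG4. The germ cell genes *Dazl*, *Ddx4*, *Zbtb16*, *Dmrt1* and *Gfra1* summed to 1655 CPM ± 294 in SSC1-4 and to 1443 ± 141 in RPG1. Their sum was 243 CPM ± 65.3 in RPG2, 198 ± 83.6 in RPG3 and 101 ± 32.4 in RPG4.

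**Figure D1:**
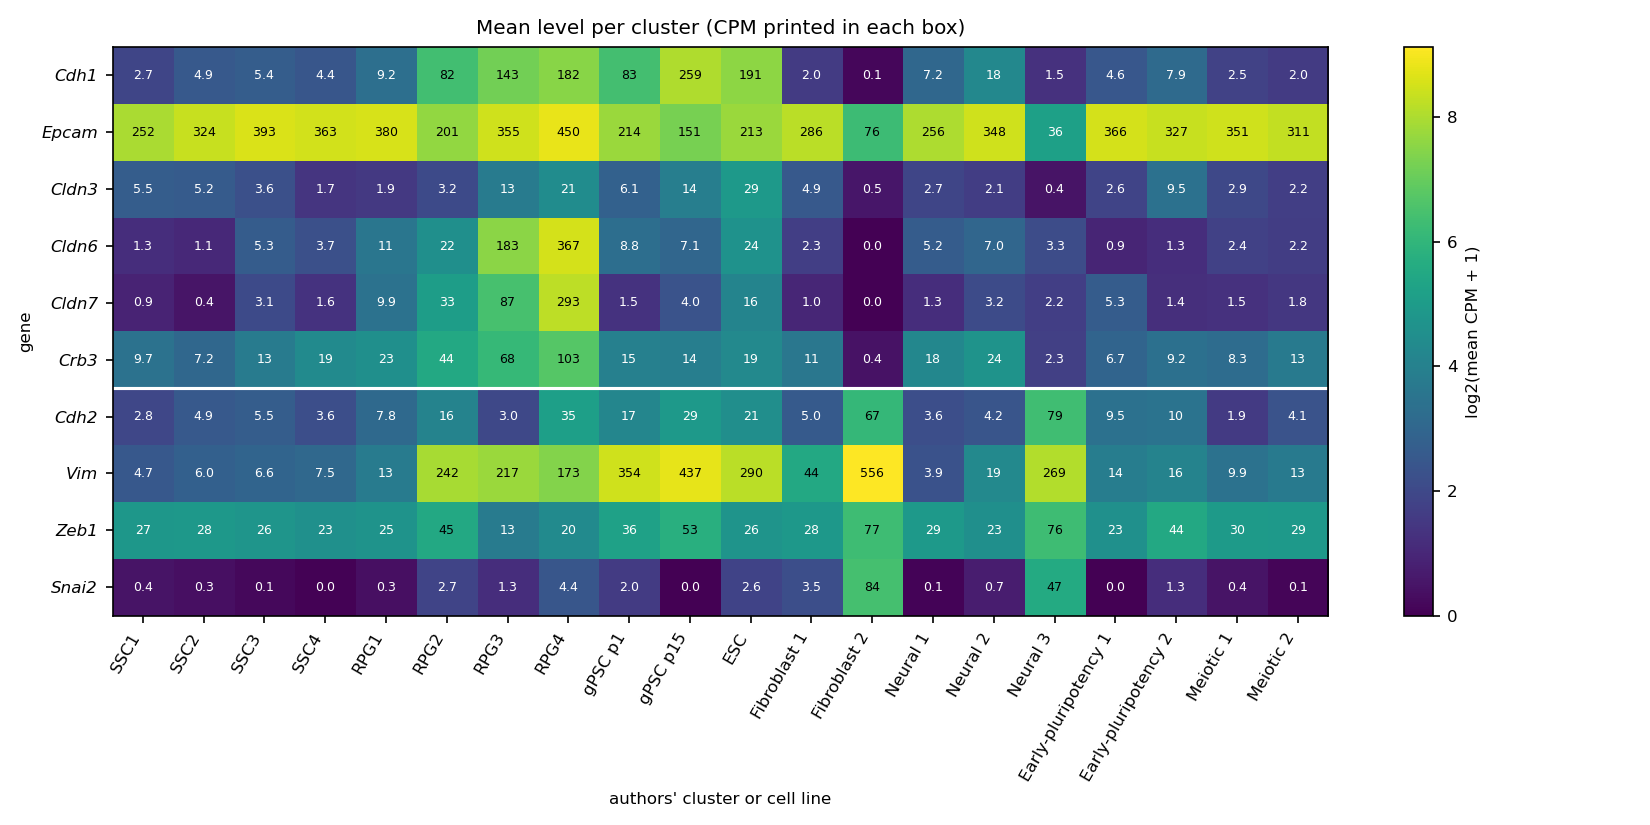
Mean level of the 10 genes in each cluster of the authors and in the gPSC and ESC libraries, coloured by log2(CPM + 1) with the CPM printed in each box. Among the clusters, *Cdh1*, *Cldn6*, *Cldn7* and *Crb3* are highest in RPG4 and RPG3, and *Vim*, *Zeb1* and *Snai2* in Fibroblast 2 and Neural 3, while *Vim* is high in RPG2 to RPG4 and in the gPSC and ESC libraries as well, and *Cdh1* in gPSC p15 and ESC is above RPG4.

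*Cdh1* was far higher in RPG2, RPG3 and RPG4 than in SSC1-4, and its smaller excess in RPG1 did not hold within libraries. Its gene lies at chromosome 8, 106603350 to 106670247 (GRCm38.p6, the assembly that mm10 names). In SSC1-4 it was at 0 to 9.64 CPM with a median of 3.06 (n = 36), and the 7 RPG1 libraries had 20.0, 11.4, 8.46, 9.08, 6.79, 3.33 and 5.94 CPM, which overlapped the upper SSC1-4 values. The 3 RPG2 libraries were at 117, 48.1 and 75.9 CPM and the 8 RPG3 libraries at 239, 200, 115, 116, 104, 115, 142 and 97.9 CPM, all far above SSC1-4. Both RPG4 libraries, at 167 and 178 CPM, lay within the range of RPG3. By edgeR, RPG1 exceeded SSC1-4 in *Cdh1* by 1.31 ± 0.38 with an adjusted p of 0.0282. The excess was 4.42 ± 0.41 for RPG2 (adjusted p = 1.78e-15), 5.23 ± 0.33 for RPG3 (9.72e-26) and 5.53 ± 0.44 for RPG4 (1.28e-18). The RPG1 call was lost without day 18 replicate 3 (1.0, adjusted p = 0.188), day 18 replicate 5 (0.0725) or day 20 replicate 2 (0.0543), with the batch as a covariate (1.17, 0.0629), and within B1 (0.85, 0.389) or B2 (2.13, 0.135) alone. With the library as a block it was 0.70 (adjusted p = 1.0), and of the 2 libraries that held both classes 1 was higher in RPG1 and 1 lower (median difference in log2(CPM + 1) of -0.02).

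Among the claudins, *Cldn6* and *Cldn7* rose by the largest folds of the 10 genes in RPG3 and RPG4. *Cldn6* lies at chromosome 17, 23679348 to 23682446, and *Cldn7* at chromosome 11, 69964779 to 69967886, and both encode tight junction proteins that span the membrane. *Cldn6* was at 0 to 7.78 CPM in SSC1-4 (mean 2.37 ± 2.31, SD) and at 19.8, 9.59, 11.8, 9.51, 4.16, 9.99 and 12.5 CPM in the 7 RPG1 libraries. In RPG2 it was at 10.6, 27.2 and 27.8 CPM, in RPG3 at 91.5, 284, 92.1, 166, 156, 154, 255 and 252 CPM, and in RPG4 at 324 and 372 CPM. The RPG3 and RPG4 values did not overlap with those of any earlier class on the route, nor with each other. *Cldn7* was at 0 to 5.10 CPM in SSC1-4 and at 10.6, 8.12, 8.32, 10.3, 5.19, 6.76 and 20.9 CPM in RPG1, so every RPG1 library stood above every SSC1-4 library. It reached 35.4, 23.6 and 37.9 CPM in RPG2, 3.52, 113, 22, 142, 81.4, 40.4, 118 and 169 CPM in RPG3 and 247 and 310 CPM in RPG4. Day 12 replicate 2, with 7 cells and 3.52 CPM, was the RPG3 library within the SSC1-4 range.

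Tested with edgeR against SSC1-4, the RPG1 level of *Cldn6* was higher by 2.05 ± 0.40 (adjusted p = 0.000264) and the RPG2 level by 3.04 ± 0.52 (1.05e-06). For RPG3 the rise was 6.09 ± 0.36 (4.97e-27) and for RPG4 7.03 ± 0.45 (3.61e-23). *Cldn7* was higher by 2.68 ± 0.41 (2.43e-06), 4.37 ± 0.50 (5.61e-12), 5.79 ± 0.39 (4.88e-24) and 7.47 ± 0.48 (3.61e-23) in the same order. With the library as a block the RPG1 differences were 1.08 for *Cldn6* and 0.75 for *Cldn7*, and neither was called. *Cldn3*, at chromosome 5, 134986214 to 134987476, encodes another tight junction claudin and moved less. It was at 4.31 CPM ± 4.14 (SD) in SSC1-4 and at 1.41, 13.5, 6.67, 13.8, 9.25, 18.4, 19.1 and 18.9 CPM in RPG3, a rise of 1.5 ± 0.54 (adjusted p = 0.0139) in which the groups overlapped. Within batches the *Cldn3* difference was 1.92 in B1 (adjusted p = 0.00945) and 0.52 in B2 (0.719). It was not called in RPG1 (-1.23, adjusted p = 0.336), RPG2 (-0.50, 0.692) or RPG4 (2.14, 0.0598).

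*Crb3*, at chromosome 17, 57062201 to 57065918, encodes a small Crumbs protein of the apical membrane. Its level was 11.2 CPM ± 7.48 (SD, n = 36) in SSC1-4 and 22.9 ± 11.5 (n = 7) in RPG1, with ranges of 0.662 to 29.6 and 11.5 to 37.5 that overlapped. The RPG2 libraries had 49.6, 44.0 and 35.8 CPM and the RPG4 libraries 97.4 and 98.3 CPM, all above every SSC1-4 library. In RPG3 it was at 0.704, 101, 26.2, 51.2, 74.1, 74.3, 91.2 and 122 CPM, where the first value is again day 12 replicate 2. By edgeR *Crb3* was higher than in SSC1-4 by 1.93 ± 0.51 in RPG2 (adjusted p = 0.00163), 2.58 ± 0.34 in RPG3 (4.62e-10) and 3.11 ± 0.54 in RPG4 (2.38e-06), and was not called in RPG1 (1.02, 0.117). With the library as a block it was not called in RPG3 (1.44, 0.196) or RPG4 (1.85, 0.344).

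*Epcam*, at chromosome 17, 87635979 to 87651127, was expressed in every library from SSC1-4 to RPG4. It was at 93.4 to 441 CPM in SSC1-4 with a median of 313, at 363 to 445 in RPG1, at 231, 155 and 205 in RPG2, at 303 to 417 in RPG3 and at 328 and 527 in RPG4, so that each class overlapped with SSC1-4, while RPG2 lay below all libraries of RPG1, RPG3 and RPG4. By edgeR it was not called in RPG1 (0.31, adjusted p = 0.183), RPG3 (0.18, 0.252) or RPG4 (0.46, 0.148). In RPG2 the difference was -0.66 ± 0.22 (adjusted p = 0.0132), just under the fold limit, and without day 12 replicate 2 it was called (-0.79, 0.0204).

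Start site windows are shown for the junction genes that rose together and, beside them, for *Epcam* and *Vim*. They are RefSeq windows of GRCm38.p6, from 250 bases before to 50 after a start, printed 5′ to 3′ on the + strand, on which all of these genes are read. Capitals mark the E-box CAGGTG or its reverse complement CACCTG, so both strands were searched, and the motif is the known core of ZEB and SNAI sites. *Cldn6* (chr17:23679115-23679414) held 2, the second *Cldn7* window (chr11:69965171-69965470) 2 and its first (chr11:69964529-69964828, not printed) 0, the first *Crb3* window (chr17:57061951-57062250) 4, *Epcam* (chr17:87635729-87636028) 2, *Cldn3* (chr5:134985964-134986263, not printed) 1, and *Vim* (chr2:13574061-13574360) 0. A second *Crb3* window (chr17:57061981-57062280, not printed) overlaps with the first and held the same 4.
Cldn6: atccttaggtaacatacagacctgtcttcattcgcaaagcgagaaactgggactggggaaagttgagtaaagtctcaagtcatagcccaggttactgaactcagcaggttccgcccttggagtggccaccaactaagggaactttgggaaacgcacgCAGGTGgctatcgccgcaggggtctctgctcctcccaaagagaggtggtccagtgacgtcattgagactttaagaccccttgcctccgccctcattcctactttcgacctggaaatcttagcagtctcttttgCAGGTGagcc
Cldn7: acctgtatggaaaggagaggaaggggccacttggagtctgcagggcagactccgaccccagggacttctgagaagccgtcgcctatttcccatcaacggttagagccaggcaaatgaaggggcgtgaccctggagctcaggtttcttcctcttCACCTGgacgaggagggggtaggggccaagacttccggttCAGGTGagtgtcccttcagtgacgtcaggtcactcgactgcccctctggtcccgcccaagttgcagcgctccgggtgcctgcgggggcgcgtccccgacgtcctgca
Crb3: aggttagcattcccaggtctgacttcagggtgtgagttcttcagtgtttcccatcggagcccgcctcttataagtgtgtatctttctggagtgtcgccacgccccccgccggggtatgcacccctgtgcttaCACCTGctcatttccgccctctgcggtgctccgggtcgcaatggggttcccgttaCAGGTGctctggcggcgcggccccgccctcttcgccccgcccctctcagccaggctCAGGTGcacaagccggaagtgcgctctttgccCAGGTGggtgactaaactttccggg
Epcam: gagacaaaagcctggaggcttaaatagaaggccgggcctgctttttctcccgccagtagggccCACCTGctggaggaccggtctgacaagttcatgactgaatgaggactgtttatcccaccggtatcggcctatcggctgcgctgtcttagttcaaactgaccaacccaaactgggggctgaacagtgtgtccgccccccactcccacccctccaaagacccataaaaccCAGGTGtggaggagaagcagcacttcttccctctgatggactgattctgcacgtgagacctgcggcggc
Vim: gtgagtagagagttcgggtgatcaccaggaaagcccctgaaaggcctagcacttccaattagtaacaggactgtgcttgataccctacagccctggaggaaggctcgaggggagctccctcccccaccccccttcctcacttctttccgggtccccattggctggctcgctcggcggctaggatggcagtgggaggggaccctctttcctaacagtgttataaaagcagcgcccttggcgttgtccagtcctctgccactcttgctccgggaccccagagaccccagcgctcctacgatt
Of the 32851 windows of that length in the table, 20.2% held at least 1 such motif, 2.88% at least 2, 0.365% at least 3 and 0.055% at least 4. A match is a description of the letters and not a bound site. No window was given for *Cdh1*, *Cdh2*, *Zeb1* and *Snai2*.

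On the mesenchymal side, *Vim* rose with the junction genes. *Vim*, at chromosome 2, 13574311 to 13582826, encodes the intermediate filament protein vimentin. It was at 0.127 to 28.4 CPM in SSC1-4 with a median of 4.11, and at 12.2, 27.5, 12.4, 18.4, 4.32, 6.17 and 11.4 CPM in RPG1, within that range. From RPG2 on no library overlapped with SSC1-4 or RPG1, with 225, 265 and 224 CPM in RPG2, 445, 117, 271, 240, 244, 171, 147 and 71.4 CPM in RPG3 and 171 and 159 CPM in RPG4. By edgeR the RPG2 cells exceeded SSC1-4 by 5.23 ± 0.53 (adjusted p = 3.59e-14), the RPG3 cells by 5.07 ± 0.43 (3.09e-18) and the RPG4 cells by 4.70 ± 0.61 (1.02e-09), and RPG1 was not called (1.05, 0.24).

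N-cadherin, a cadherin of neural and mesenchymal cells, is encoded by *Cdh2*. *Cdh2* did not follow that course. Its level was 0 to 13.7 CPM in SSC1-4 (mean 4.28 ± 2.69, SD), 30.6, 7.61 and 7.95 CPM in RPG2, 0.704, 0.569, 9.12, 4.32, 1.43, 5.51, 1.54 and 0.406 CPM in RPG3 and 27.5 and 38.8 CPM in RPG4. Both RPG4 libraries stood above all of RPG3 and SSC1-4. By edgeR it was higher than in SSC1-4 in RPG2 (1.83 ± 0.59, adjusted p = 0.00982) and RPG4 (2.93 ± 0.62, 0.000107), and was not called in RPG1 (0.86, 0.284) or RPG3 (-0.53, 0.348). With the library as a block it was not called in RPG4 (2.55, 0.342). The RPG2 call rested on the 8 cells of day 12 replicate 2, without which it was 0.85 (adjusted p = 0.407).

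The repressor genes *Zeb1* and *Snai2* differed from each other. *Zeb1* was at 24.9 CPM ± 8.10 (SD) in SSC1-4, at 25 ± 5.11 in RPG1 and at 25.1, 48.4 and 58.7 CPM in RPG2. In RPG3 it was at 4.92, 10.4, 11.1, 7.82, 5.88, 12.2 and 10.8 CPM in 7 libraries and at 38.5 in day 18 replicate 5, while SSC1-4 covered 7.44 to 50.3, so the groups overlapped. It fell by 0.95 on the log2 scale in RPG3 (SE 0.27, adjusted p = 0.00178), with -1.31 within B1 (0.000329) and -0.57 within B2 (0.443), and was not called in RPG1, RPG2 (0.81, 0.065) or RPG4 (-0.44, 0.506). Without day 12 replicate 2 it was called higher in RPG2 (1.09, 0.0307). *Snai2*, at chromosome 16, 14705852 to 14709395, was near the floor on the whole route. Its SSC1-4 libraries gave 162 UMIs in all and 19 of 36 were at 0, and 4 of 8 RPG3 libraries were at 0 with the others at 2.66, 2.11, 2.74 and 2.57 CPM. In RPG2 it was at 0, 0 and 7.95 CPM and in RPG4 at 7.99 and 0.385 CPM, so that in each class 1 library held nearly all of its UMIs.

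*Snai2* passed the test in RPG2 (3.18 ± 1.19, adjusted p = 0.0284), RPG3 (2.11 ± 0.92, 0.043) and RPG4 (3.8 ± 1.36, 0.0274), and none of these calls stood without single libraries. Without day 14 replicate 6 the RPG2 difference turned to -5.11, a value set against libraries at 0, and without day 20 replicate 1 the RPG4 difference was 0.45 (0.925). The RPG3 call was lost without day 18 replicate 5, day 20 replicate 1, day 20 replicate 2 or day 20 replicate 8 (1.85 to 1.98, adjusted p = 0.0814 to 0.104).

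Counted over the 10 members, 3 rose in RPG1 against SSC1-4, where 2.23% of all 20030 genes tested were called higher and 1.55% lower. In RPG2, 7 rose and none fell, against 14.8% and 17.2% of all genes. In RPG3, 7 rose and 1 fell, against 19.4% and 27.5%, and in RPG4, 7 rose, against 11.7% higher and 14% lower. The 7 that rose in RPG2 were *Cdh1*, *Cdh2*, *Cldn6*, *Cldn7*, *Crb3*, *Vim* and *Snai2*, in RPG3 *Cldn3* stood in place of *Cdh2*, and in RPG4 they were again those of RPG2. Some libraries gave sums to several classes, and with the library as a block 0 members were called in RPG1 (*Cldn6* 1.08 and *Cldn7* 0.75, each with adjusted p = 1.0, beside *Cdh1* above). In the 2 libraries that held both, *Cldn6* and *Cldn7* were higher in RPG1 in 2 of 2, by medians in log2(CPM + 1) of 0.28 and 0.69. The blocked fit called 4 in RPG3 and 4 in RPG4, with *Cdh1*, *Cldn6*, *Cldn7* and *Vim* called in each, while *Crb3* was at 1.44 (adjusted p = 0.196) and 1.85 (0.344). It left out *Cldn3* (3.51, 0.0573), *Zeb1* (-1.16, 0.136) and *Snai2* (5.39, 0.207) in RPG3, and *Cdh2* (2.55, 0.342) and *Snai2* (5.97, 0.356) in RPG4. In RPG2 it left 5, without *Cdh2* (1.27, 0.424) and *Snai2* (5.67, 0.136).

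**Figure D2:**
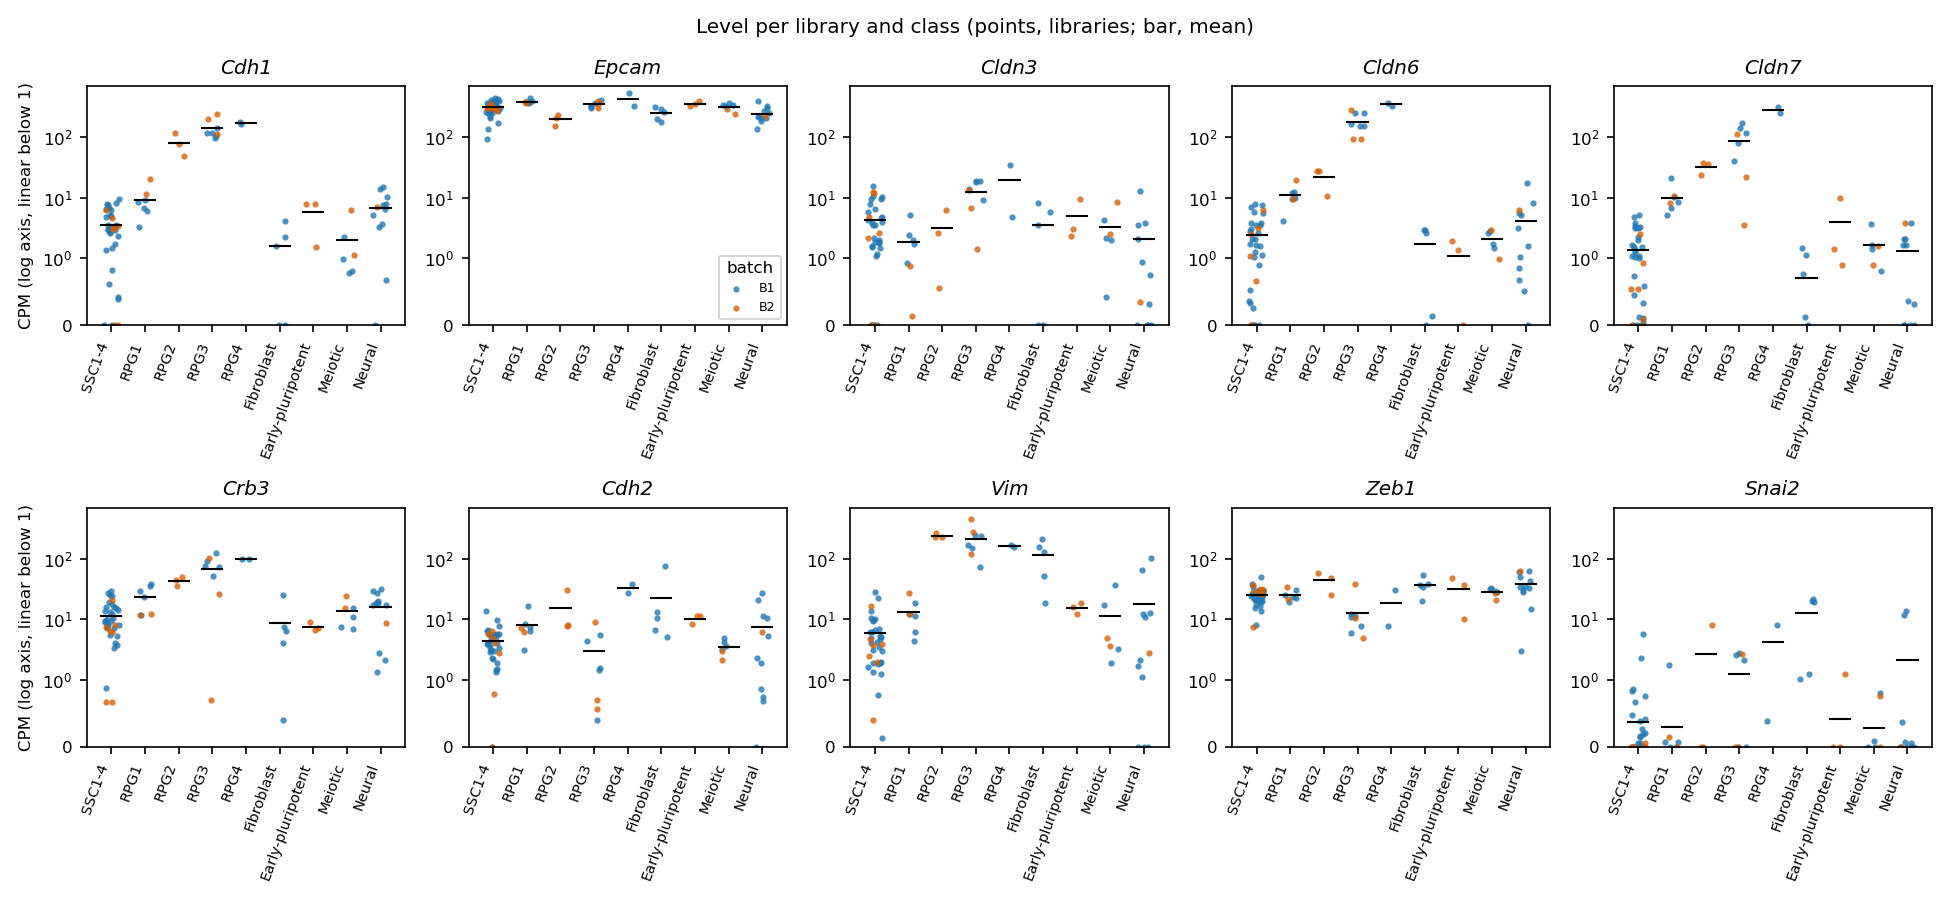
Level of each gene in every library by class, on an axis that is linear below 1 CPM and logarithmic above, with batch B1 in blue, batch B2 in orange and a bar at the mean. All RPG2, RPG3 and RPG4 points of *Vim* and *Cdh1* lie above all SSC1-4 points, and the *Epcam* points of these classes overlap with those of SSC1-4.

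The step from RPG1 to RPG3 could be seen within 7 libraries that held both classes. *Cdh1*, *Cldn3*, *Cldn6*, *Cldn7*, *Crb3* and *Vim* were higher in RPG3 in 7 of 7 of them, with median differences in log2(CPM + 1) of 3.62, 2.41, 3.90, 2.96, 1.13 and 3.66. *Zeb1* was lower in 6 of 7 (median -1.22), *Cdh2* in 5 (-1.62) and *Epcam* in 6 (-0.11), and *Snai2* was higher in 4. In the test over all libraries the same 6 rose, with *Cdh1* at 3.93 ± 0.58 (adjusted p = 2.73e-08), *Cldn6* at 4.04 ± 0.63 (1.32e-07), *Cldn7* at 3.11 ± 0.64 (4.99e-05), *Vim* at 4.02 ± 0.77 (1.19e-05), *Cldn3* at 2.74 ± 0.85 (0.00695) and *Crb3* at 1.56 ± 0.54 (0.0156), and *Zeb1* fell by 0.94 (SE 0.33, 0.0171). Of all genes tested, 15.4% were called higher and 20.3% lower. *Epcam* was not called (-0.14, 0.567), nor were *Cdh2* (-1.39, 0.0567) and *Snai2* (2.04, 0.239). The library block added *Cdh2* (-2.09, adjusted p = 0.0219), as did leaving out day 18 replicate 5 (-1.99, 0.0125) or day 20 replicate 8 (-1.71, 0.0325), and without day 20 replicate 2 *Snai2* was called (4.29, 0.0446). *Crb3* was no longer called without day 18 replicate 3 (1.35, 0.0588) or day 23 replicate 1 (1.38, 0.0537), and *Zeb1* without day 18 replicate 3 (-0.81, 0.0633). Within B1 the same 7 were called, and within B2, with 2 libraries of RPG1 and 3 of RPG3, *Cdh1* (3.57, 0.0039), *Cldn6* (3.42, 0.024) and *Vim* (3.82, 0.00196) were.

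From RPG3 to RPG4, *Cdh2* was the member that changed, with a rise of 3.46 ± 0.79 (edgeR adjusted p = 0.00149), where 3.88% of all genes were called higher and 4.57% lower. Both libraries that held both classes showed it, with a median difference in log2(CPM + 1) of 3.23. *Cldn6* (0.94, adjusted p = 0.49), *Cldn7* (1.68, 0.189) and *Vim* (-0.37, 0.887) were not called. In these 2 libraries *Cldn6* and *Cldn7* were higher in RPG4 in 2 of 2, by medians of 1.11 and 1.35, and *Vim* was lower in 2 of 2 (-0.55).

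In the pluripotent lines *Vim* was within the range of the RPG3 libraries and *Cldn6* below it. *Cdh1* lay below that range in gPSC p1, above it in gPSC p15 and within it in ESCs. With 1 library each there is no test, and the ranges in brackets are exact Poisson intervals at the 95% level, which cover counting error only. *Cdh1* was at 82.6 CPM [77.5 to 88.0] in gPSC p1, 259 [249 to 270] in gPSC p15 and 191 [184 to 199] in ESCs, against 97.9 to 239 in the RPG3 libraries. *Vim* was at 354, 437 and 290 CPM in the same order, within the RPG3 range of 71.4 to 445. *Cldn6* was at 8.75 [7.14 to 10.6], 7.06 [5.51 to 8.92] and 24.4 [21.8 to 27.2] CPM, below each of the 8 RPG3 libraries, of which the lowest had 91.5 CPM. *Cldn7* was at 1.54 [0.915 to 2.44], 4.04 [2.88 to 5.5] and 16.2 [14.1 to 18.5] CPM, each below at least 7 of 8 RPG3 libraries. *Crb3*, at 14.8, 14.1 and 18.6 CPM, was likewise below 7 of 8. *Cdh2* was at 17.4, 28.6 and 21.5 CPM, above the RPG3 maximum of 9.12, and *Zeb1* at 36.3, 53.1 and 25.7 CPM, above at least 7 of 8 RPG3 libraries. *Epcam* was at 214, 151 and 213 CPM and *Cldn3* at 6.09, 13.8 and 29.4 CPM. *Snai2* had no UMI in gPSC p15, which allows up to 0.303 CPM, and was at 1.97 and 2.59 CPM in gPSC p1 and ESCs. Set in order over all clusters, RPG4 and RPG3 did not differ beyond their spread for *Cdh1* (182 and 143 CPM), RPG2 (82.0) and Neural 2 (18) followed at distances beyond it, and for *Cldn6* the order of RPG4 (367), RPG3 (183), RPG2 (22.1) and RPG1 (10.9) was beyond it at each step. These cluster means, and those of the fibroblast-like and neural-like clusters below, come from a fit of clusters in place of classes, with slightly different scaling factors.

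In RPG2, RPG3 and RPG4 most cells held both *Cdh1* and *Vim*. Of 261 RPG3 cells, 94.3% held a UMI of both, and 77.4% one of *Cldn6* and *Cldn7*. In RPG4 (33 cells) these shares were 87.9% and 87.9%, in RPG2 (47 cells) 85.1% and 25.5%, and in RPG1 (333 cells) 53.2% and 56.5%. *Cdh1* with *Vim* reached 93.8% in gPSC p1, 100% in gPSC p15 and 97.8% in ESCs, where *Cldn6* with *Cldn7* reached 6.25%, 28.1% and 26.7%. *Cdh1* with *Vim* was in 4.52% of SSC1, 8.42% of SSC2, 18.4% of SSC3 and 9.03% of SSC4 cells, at medians of 149268, 286300, 378770 and 281650 UMIs per cell against 285699 in RPG3. Thinned to 50000 UMIs per cell, *Cdh1* with *Vim* was found in 0.808% (SSC2) to 2.64% (SSC3) of cells over the 4 SSC clusters, 13.5% of RPG1, 73.3% of RPG2, 73.2% of RPG3 and 66.7% of RPG4 cells, and *Cldn6* with *Cldn7* in 13.1% of RPG1, 11.1% of RPG2, 54.7% of RPG3 and 81.8% of RPG4 cells. Fibroblast 2, which should lack *Cdh1*, held a UMI of it in 1 of 39 cells (2.56%, exact binomial interval 0.065% to 13.5%, median 220987 UMIs) and one of *Vim* in all 39. That share was the lowest of all the clusters. Neural 3, at 1.46 CPM of *Cdh1*, held it with *Vim* in 29.5% of 61 cells and *Cldn6* with *Cldn7* in 19.7% (5.17% and 1.72% thinned). *Cdh1* with *Vim* was in 46.2% of Neural 2 and 72.7% of Early-pluripotency 2 cells (15.9% and 9.21% thinned), so the RPG1 share was not above that of each cluster off the route, as deposited or thinned, while those of RPG2 to RPG4 were.

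Off the route, *Vim*, *Snai2* and *Cdh2* rose in the fibroblast-like class, and their levels were higher in the smaller of its 2 clusters. In the class of 5 libraries *Vim* was at 131, 154, 18.2, 51.2 and 215 CPM, *Snai2* at 19, 21.2, 1.23, 1.03 and 19.7 CPM and *Cdh2* at 13.2, 10.4, 6.65, 5.15 and 75.5 CPM, so *Cdh2* overlapped with SSC1-4 in 4 of 5. By edgeR they were higher by 4.16 ± 0.48 (adjusted p = 5.34e-11), 5.38 ± 0.93 (5.54e-06) and 2.34 ± 0.46 (9.04e-05), where 5.11% of all genes were called higher and 0.22% lower. The other 7 members were not called. Without day 27 replicate 5, with 6 cells, *Cdh2* was at 1.06 (adjusted p = 0.392), and with the library as a block *Vim* alone was called (2.98, 0.000173), with *Cdh2* at 2.02 (0.575) and *Snai2* at 4.92 (0.30). The class was almost all of batch B1, within which the same 3 were called.

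In Fibroblast 2 (39 cells, 3 libraries with sums) all 10 members passed the test, the mesenchymal ones higher and the junction ones lower. *Vim* was at 772, 677 and 220 CPM, *Snai2* at 135, 97.4 and 20.1, *Cdh2* at 63.3, 61.1 and 77.2 and *Zeb1* at 78.5, 96.1 and 55.9 CPM, and none of these overlapped with SSC1-4. The differences were 6.31 ± 0.51 (adjusted p = 1.43e-18), 8.02 ± 0.93 (9.96e-12), 3.84 ± 0.47 (9.56e-11) and 1.48 ± 0.34 (0.000229) by edgeR. *Epcam*, at 28.4, 14 and 184 CPM, was lower by -2.08 ± 0.33 (1.44e-07), *Crb3* by -4.81 ± 1.09 (0.000203), *Cdh1* by -4.72 ± 1.31 (0.00259) and *Cldn3* by -3.17 ± 1.31 (0.0481). *Cldn6* and *Cldn7* had no UMI in the 3 sums and were at least 5.86-fold and 3.39-fold lower than the SSC1-4 means of 2.36 and 1.37 CPM on the scale of this fit, taking 3 counts over the 3 sums (0.403 CPM) as the limit (adjusted p = 0.0108 and 0.0298). Of all genes 17.4% were called higher and 15.7% lower in this contrast. In Fibroblast 1 (182 cells, 4 libraries), where 0.601% were called higher and 0.02% lower, *Vim* alone passed, at 40.0, 74.1, 13 and 50.4 CPM (2.83 ± 0.54, adjusted p = 0.001), and *Snai2* at 2.44, 9.52, 1.13 and 1.01 CPM did not (3.57, 0.13).

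Neural 3 (61 cells in 2 libraries of day 27) had the same 4 mesenchymal members higher as Fibroblast 2. *Vim* was at 265 and 273 CPM, *Snai2* at 40.0 and 53.6, *Cdh2* at 73.3 and 85.4, *Zeb1* at 74.7 and 78.1 and *Epcam* at 30.9 and 40.2 CPM, all outside the SSC1-4 range. The edgeR differences were 5.38 ± 0.47 (adjusted p = 6.88e-16), 7.30 ± 0.95 (1.31e-09), 4.17 ± 0.46 (5.38e-12), 1.58 ± 0.35 (0.000228) and -3.16 ± 0.33 (5.99e-13), while *Cldn3* (-3.68, 0.0548) and *Crb3* (-2.30, 0.0506) were not called, where 15.4% of all genes were called higher and 14.2% lower. Neural 2, from the same 2 libraries, had *Cdh1* called, at 23.2 and 12.8 CPM (2.28 ± 0.54, 0.0168), where 0.57% of all genes were called higher and 0.00505% lower. In the class of all neural-like cells (12 libraries) *Vim* (1.6 ± 0.42, adjusted p = 0.0057) and *Snai2* (2.98 ± 0.79, 0.00723) were called, where 4.50% were called higher and 2.87% lower, and with the library as a block neither was, at -0.93 and -0.99. Neural 1 (8 libraries), where 2.13% of all genes were called higher and 2.2% lower, gave -0.62 and -1.30 for these 2 genes and no member was called (1 at an unadjusted p below 0.05, *Cdh1*). Within the 10 libraries that held neural-like and SSC1-4 sums, *Epcam* was lower in the neural-like cells in 9 (median in log2(CPM + 1) of -0.54). There *Zeb1* was higher in 8 (0.99) and *Vim* lower in 6 (-1.48).

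Fibroblast genes that were listed for feeder cells were also high in Fibroblast 2 and Neural 3. The list does not set feeder cells apart from other fibroblasts, and the paper reads the fibroblast-like clusters as SSCs that took on a fibroblast identity. Summed over *Col1a1*, *Col1a2*, *Col3a1*, *Dcn*, *Lum*, *Pdgfra*, *Postn* and *Thy1*, the level was 2177 to 6484 CPM in Fibroblast 2, 1237 and 1289 in Neural 3, 228 to 378 in Fibroblast 1 and 98.3 and 123 in Neural 2. It was 16.6 to 169 CPM over SSC1 to SSC4, 11.9 to 45.8 in RPG3, 4.92 to 13.4 in RPG2 and 6.30 and 7.11 in RPG4, so that where *Vim* was high on the route these genes were within or below their SSC range. The germ cell genes summed to 250 to 1151 CPM in Fibroblast 2 and to 147 and 355 in Neural 3, against 1167 to 2612 over SSC1 to SSC4, with the lowest value in SSC3, and the Sertoli cell genes *Amh*, *Cst12*, *Gata4*, *Sox9* and *Wt1* to 265 and 380 CPM in Neural 3 against 0.440 to 107 over SSC1 to SSC4. The genes *Col12a1*, *Col5a2* and *Ctgf* (*Ccn2*), by which the paper named the fibroblast-like clusters, summed to 573 to 878 CPM in Fibroblast 2. In Neural 3 they summed to 29.7 and 68.3 CPM, and over SSC1 to SSC4 to 0 to 36.7. The part of MEF feeder cells in the 2 clusters was not tested.

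**Figure D3:**
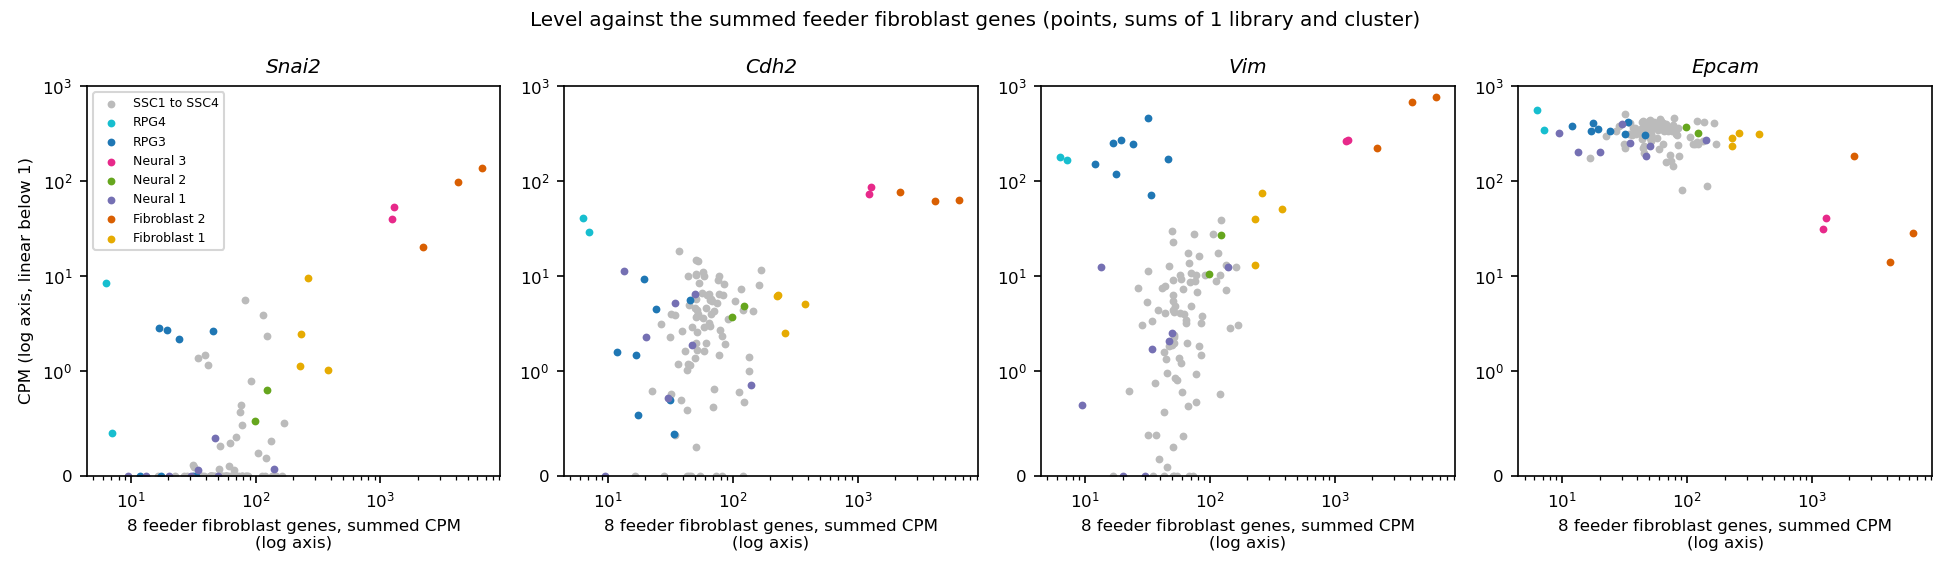
*Snai2*, *Cdh2*, *Vim* and *Epcam* against the summed level of the 8 fibroblast genes listed for feeder cells, in CPM, with a point for each library and cluster shown. Points of Fibroblast 2 and Neural 3 lie at the right, above 1200 CPM of these genes, and the RPG3 and RPG4 points of *Vim* lie high at the left, below 50.

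For 2 classes off the route, the list nearest to the name gave no called gene by edgeR. The authors named the early-pluripotency clusters by *Esrrb*, *Dppa2* and a low level of *Oct4*, and the meiotic ones by *Spo11* and *Dpep3*. Of the former, the list used here holds *Oct4* (*Pou5f1*) alone, so its values do not test the authors' own markers of that class. Of the 5 pluripotency genes 0 were called in the early-pluripotency class (2 at an unadjusted p below 0.05, *L1td1* and *Sox2*), where they summed to 119 CPM ± 61.7 (SD, n = 3) against 81.7 ± 45.2 in SSC1-4, and of the meiotic genes *Spo11*, *Dpep3*, *Sycp3* and *Stra8* 0 of 4 were called in the meiotic class (0 at an unadjusted p below 0.05), at 294 ± 57.7 (n = 6) against 200.3 ± 94.7. The names are the authors'. The early-pluripotency class (3 libraries) had 0 members called by edgeR against SSC1-4, where 0.889% of all genes were called higher and 0.349% lower. *Cdh2* (1.24 ± 0.61, 10.2 CPM ± 1.65, SD) had an unadjusted p of 0.0452 and an adjusted p of 0.32, and DESeq2 also called 0. The meiotic class (6 libraries) had 0 called as well, with 0 at an unadjusted p below 0.05 and 0 by DESeq2, where 0.934% were called higher and 0.444% lower. *Cdh1* was at 2.02 CPM ± 2.11 (SD) there (-0.90, adjusted p = 0.379) and *Vim* at 1.91 to 37.2 CPM (0.84, 0.502). All 6 were of day 16, and within the 5 that also held SSC1-4 sums, of 7 to 33 cells, the sign for *Cdh1* was the opposite. *Cldn6*, *Cldn7* and *Vim* were higher in the meiotic cells in 5 of 5, by medians in log2(CPM + 1) of 0.99, 0.92 and 0.92, and *Cdh1* in 4 of 5 (0.84). With the library as a block *Cdh1* was at 0.78 (adjusted p = 0.82) and *Vim* at 2.42 (0.147), and again 0 members were called. In the early-pluripotency class *Cdh1*, *Cdh2* and *Vim* were higher in both libraries that held SSC1-4 cells, by medians of 1.17, 1.16 and 1.61. *Cldn7* (1.26), *Cldn3* (0.94) and *Epcam* (0.21) were higher in both as well, while *Cldn6*, *Crb3* and *Zeb1* were higher in 1 and lower in 1. With the block 0 members were called.

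Along the days, cells that stayed in SSC1-4 showed no member called in 36 libraries, where 1.32% of 17882 genes had a rising and 2.7% a falling slope. The 3 with an unadjusted p below 0.05 by edgeR were *Cdh1* (log2 slope 0.116 ± 0.040 per day, adjusted p = 0.0868), *Zeb1* (-0.046 ± 0.015, 0.0685) and *Epcam* (0.027 ± 0.011, 0.171). On the days with at least 6 such libraries, *Cdh1* had a mean of 3.51 CPM on day 14, 5.57 on day 20 and 4.44 on day 23, *Zeb1* 34.9, 24.2 and 22.7 and *Epcam* 295, 377 and 405. DESeq2 called 2 members, *Cdh1* (0.117 per day, adjusted p = 0.00917) and *Zeb1* (-0.043, 0.00792).

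Between 5C and DMSO, the cells that the authors predicted to be RPG3 differed in *Cldn6* and *Cldn7*, in *Crb3* and in *Vim*. *Cldn6* was at 218 and 190 CPM in DMSO replicates 1 and 2 and at 21.9, 0, 54.0, 38.6, 3.74 and 12.5 CPM in 5C replicates 1, 3, 5, 6, 7 and 8, and *Cldn7* at 88.6 and 128 against 18.8, 0, 20.2, 10.4, 0 and 3.29 CPM. *Crb3* was at 105 and 93.0 CPM against 39.1, 6.30, 61.7, 35.8, 16.6 and 14.5, and *Vim* at 80.1 and 43.4 CPM against 179, 205, 187, 103, 184 and 107. Of all 11429 genes tested, 6.19% were called higher in 5C and 7.27% lower. *Cldn6* fell by 3.12 (SE 0.62, edgeR adjusted p = 0.00275), *Cldn7* by 3.43 (0.73, 0.00472) and *Crb3* by 1.70 (0.49, 0.027), and *Vim* was higher by 1.38 ± 0.32 (0.00804). *Cdh1*, at 111 and 88.0 CPM in DMSO and 90.0, 15.7, 150, 87.6, 53.3 and 118 in 5C, overlapped and was not called (-0.18, 0.837), nor were *Epcam* (-0.80, 0.136), *Cldn3* (-1.99, 0.237) and *Zeb1* (2.19, 0.0636). The DMSO arm rests on 2 samples: without DMSO replicate 2, *Cldn7* (adjusted p = 0.106), *Crb3* (0.165) and *Vim* (1.0, 0.211) were not called, and without DMSO replicate 1 *Crb3* (0.201) was not. Of the marker genes tested, *Dazl* (1.72, adjusted p = 0.00466) and *Ddx4* (1.27, 0.0485), 2 of 4 germ cell genes, were higher in these 5C cells, and of 5 pluripotency genes *Sox2* was higher (0.95, 0.00242) and *Utf1* lower (-1.14, 0.000133), and their part in the result was not tested. DESeq2 gave adjusted p = 0.053 for *Cldn6* and 0.104 for *Cldn7*, and called *Zeb1* (2.19, 0.0114). Without 5C replicate 5, *Epcam* (-1.13, 0.00581) and *Zeb1* (2.38, 0.0405) were called.

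Shares of cells describe the same counts cell by cell and are no second test. They pool samples of unequal size, with 54 of the 145 RPG3 cells of 5C from replicate 5. A UMI of *Cldn6* was in 90.7% of 140 RPG3 cells with DMSO and 37.2% of 145 with 5C, one of *Cldn7* in 83.6% and 24.8%, and one of *Vim* in 55.0% and 93.1%. Thinned to 50000 UMIs per cell these became 90.8% and 30%, 77.1% and 24.2%, and 54.1% and 90.8%. *Cdh1* was in 82.9% and 80.7% of cells as deposited, and *Cdh1* with *Vim* in 47.1% and 75.2%. In SSC1-4 cells, *Vim* was in 6.29% of 159 with DMSO and in 49.7% of 350 with 5C (7.14% and 38.7% thinned).

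In SSC1-4 cells (8 5C samples, and DMSO replicates 3 to 5) *Vim* was at 4.37, 0 and 8.06 CPM in DMSO and at 6.24, 12.8, 9.96, 9.62, 16.6, 53.1, 18.6 and 31.5 CPM in 5C, with an overlap at 1 sample. It was the member called (2.22 ± 0.74, edgeR adjusted p = 0.0334), where 8.74% of 12293 genes were called higher and 7.75% lower. Of 5 pluripotency genes *L1td1*, *Nanog* (3.54, adjusted p = 0.0175) and *Sox2* (2.24, 0.000459) were called higher in the same 5C cells, of 2 Sertoli cell genes tested *Sox9* (2.09, 0.0182) was, and *Ddx4* (-0.72, 0.000267) of 5 germ cell genes and *Col1a1* (-1.65, 0.00247) of 3 fibroblast genes tested were lower, and the part of these in the *Vim* result was not tested. That *Vim* call was lost without 5C replicate 6 (adjusted p = 0.067) or 8 (0.0605), or DMSO replicate 3 (0.0844) or 4 (0.126), and *Cldn3* was called without 5C replicate 4 (-2.84, 0.0489) and *Cdh2* without 5C replicate 5 (2.09, 0.0395). *Cdh2* (1.93, 0.103), *Zeb1* (0.75, 0.139) and *Cldn3* (-2.41, 0.0772) were not called, and *Epcam* was at 365, 163 and 218 CPM in DMSO and 147 to 305 in 5C (-0.02).

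Over all cells of a sample, *Cdh2* was at 1.88, 2.03, 2.1, 0.458 and 4.59 CPM in DMSO and 7.86, 6.89, 5.03, 6.40, 6.94, 10.3, 9.03 and 11.7 CPM in 5C. *Zeb1* was at 6.57, 2.03, 9.56, 16 and 15.2 CPM against 28.4, 33.6, 33.2, 24.6, 17.1, 23.2, 21.3 and 25.9. Both genes were called higher in 5C (*Cdh2* 1.86 ± 0.46, edgeR adjusted p = 0.0162, and *Zeb1* 1.39 ± 0.38, 0.026), where 6.20% of 13028 genes were called higher and 5.08% lower. *Zeb1* was not called without DMSO replicate 1 (1.28, 0.0544), and *Cldn3* (-2.64, 0.0604) was called without 5C replicate 5 (-3.15, 0.033) or DMSO replicate 3 (-2.92, 0.0449) and by DESeq2 (-2.72, 0.0152). These sums mix cell classes, and DMSO replicates 1 and 2 held 84.1% and 73.3% RPG3 cells while DMSO replicates 3 to 5 held 78.3% to 84.9% SSC1-4 cells. *Cldn6* (-3.28, 0.102), *Cldn7* (-3.70, 0.085) and *Crb3* (-1.70, 0.164) were not called. *Snai2* gave 2 UMIs in all, both in 5C replicate 5, and was not tested.

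**Figure D4:**
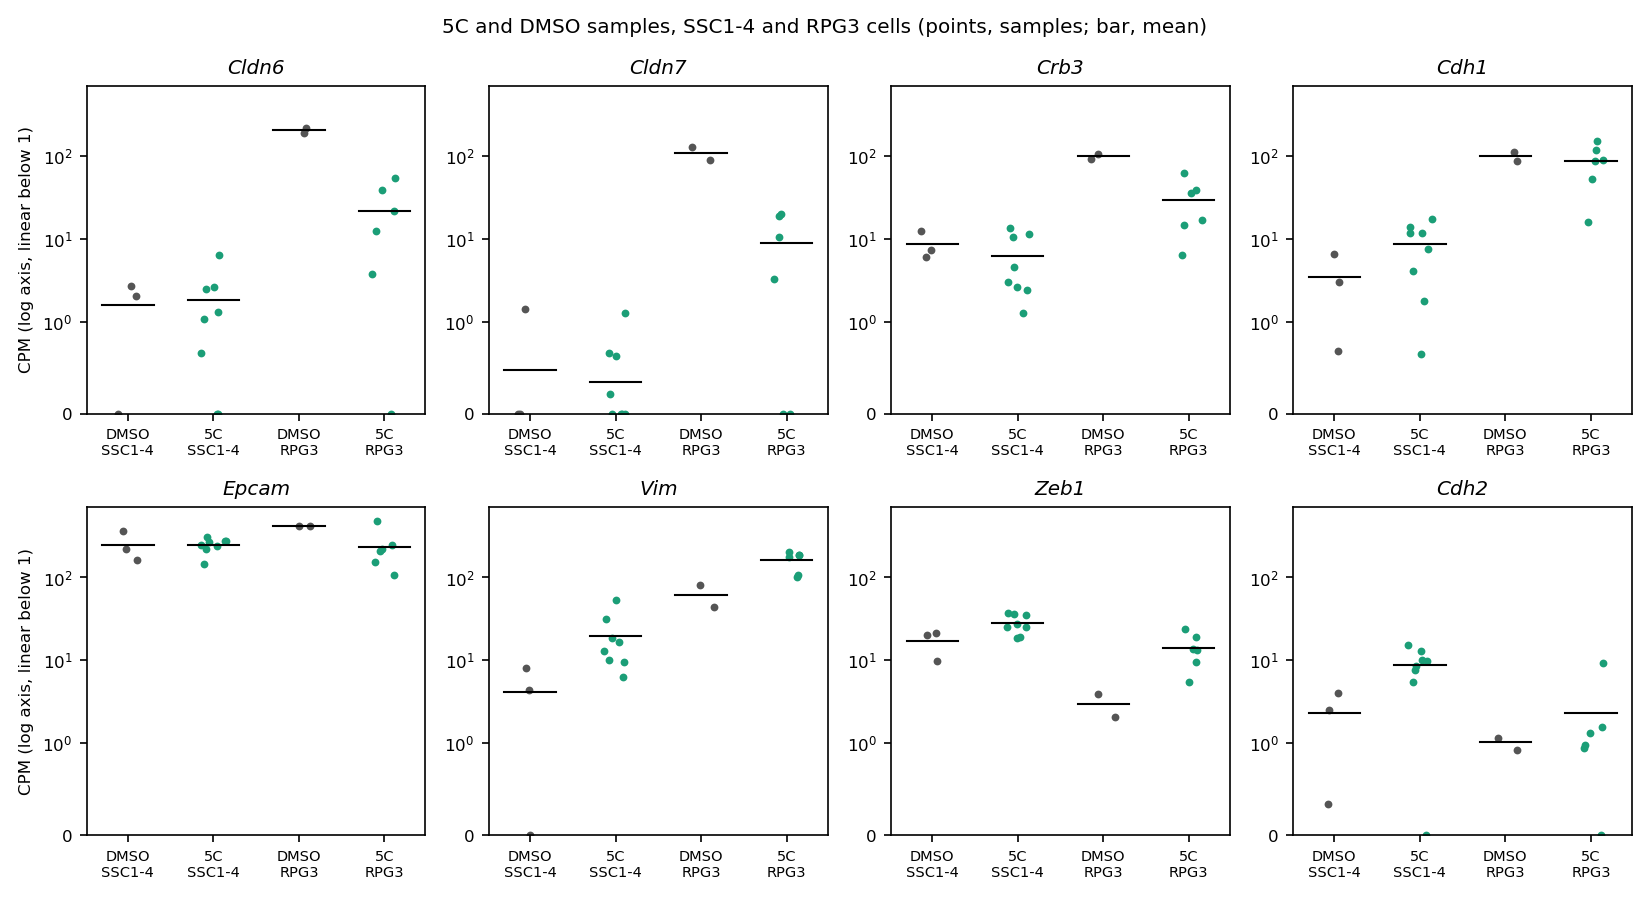
CPM of 8 genes in 5C and DMSO samples, for cells predicted as SSC1-4 and as RPG3, on an axis that is linear below 1 and logarithmic above. In RPG3 cells all 5C points of *Cldn6*, *Cldn7* and *Crb3* lie below both DMSO points, and those of *Vim* above.

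Other genes of the same pathways, listed by hand beside the members, were counted in the same way, and the counts in RPG3 stand beside 19.4% of all genes called higher and 27.5% lower. Of 8 desmosome and keratin genes tested, which join cells to the keratin network, 7 rose in RPG3 and 0 fell, with a median of 2.21 against -0.25 over all genes, and *Dsc2* (4.28) and *Dsg2* (3.99) led. In RPG4, 7 of 8 rose (median 3.20 against -0.54, where 11.7% of all genes were called higher), with *Dsc2* at 5.51 and *Krt8* at 4.79. Of 12 epithelial regulators and proteases 7 rose in RPG3 and 0 fell (median 1.42), led by the transcription factor gene *Elf3* (5.55) and *Rab25* (2.98). *Elf3* was also the one of them that rose in RPG1 (2.37). Tight junction genes went both ways in RPG3, with 4 of 12 higher, *Cldn4* (5.10) and *Tjp3* (2.42) among them, and 5 lower, *Cldn1* (-3.89) and *Ocln* (-2.91) among them. Of 8 cadherin, catenin and nectin genes, 3 rose in RPG3, led by *Jup* (1.87) and *Ctnnd1* (1.55), and *Pvrl1* fell (-0.76). Polarity genes had 2 of 9 higher (*Llgl2* 2.00 and *Prkci* 1.08) and 2 lower (*Mpp5* -1.30 and *Inadl* -0.95), shares near those over all genes.

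Of the other 8 transcription factors of the epithelial-mesenchymal transition, 0 rose and 5 fell in RPG3 (median -2.63), where 27.5% of all genes were called lower, led by *Twist1* (-3.65) and *Snai1* (-3.13). In RPG4, *Zeb2* (4.59) and *Tcf4* (1.11) rose and 4 fell, where 11.7% of all genes were called higher and 14% lower. In RPG2, *Snai3* (1.09) rose and 3 fell, against 14.8% and 17.2% of all genes. Of 14 mesenchymal effector genes, 3 rose in RPG3, *Fn1* (1.79), which encodes fibronectin, and the integrin gene *Itga5* (1.73) among them, and 8 fell (median -2.86), led by *Acta2* (-4.84) and *Lox* (-3.90). Of the 8 fibroblast genes listed for feeder cells, 3 fell in RPG3 and 0 rose (median -2.66), and the part of feeder RNA in these falls was not tested. In the fibroblast-like class 13 of these 14 rose and 0 fell (median 3.93 against -0.07 over all genes, of which 5.11% were called higher), led by *Cdh11* (6.36) and *Lox* (6.21), and *Prrx1* (5.42) and *Zeb2* (3.73) led 3 of 8 transcription factors that rose. From RPG3 to RPG4, 3.88% of all genes were called higher and 4.57% lower. Of 8 desmosome and keratin genes, *Krt8* (3.09) and *Krt19* (2.49) rose there and 0 fell. Of 14 mesenchymal effectors *Acta2* rose (8.09) and *Fn1* fell (-1.59), and of 12 epithelial regulators and proteases *Ovol1* fell (-8.42). *Pvrl1* (2.34), *Ocln* (1.54) and *Inadl* (2.01) rose, each the 1 gene called of its list. In RPG3 cells with 5C against DMSO, where 6.19% of all genes were called higher and 7.27% lower, 2 of 5 desmosome and keratin genes tested fell (*Krt18* -3.69 and *Krt8* -3.21) and 0 rose. Of 9 tight junction genes *Tjp1* rose (1.92) and *Cldn4* fell (-2.08), of 8 cadherin, catenin and nectin genes 2 rose (*Pvrl3* 1.18 and *Ctnnd1* 0.95), of 9 polarity genes 3 rose, *Prkci* (1.55) and *Dlg1* (1.22) among them, and of 4 mesenchymal effectors *Fn1* rose (1.08), with 0 lower in the last 3 lists. By edgeR 0 of 9 epithelial regulators and proteases (4 at an unadjusted p below 0.05) and 0 of 4 transcription factors (0) were called.

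Over 17 clusters with a sum of at least 5 cells, *Cldn6* and *Cldn7* had a Pearson correlation of log2 levels of 0.95, and *Cdh1* had 0.92 with *Cldn6*, 0.90 with *Cldn7* and 0.90 with *Crb3*. *Cdh1* and *Vim* had 0.30 and *Cdh1* and *Cdh2* -0.03, while *Epcam* ran against *Snai2* (-0.85) and *Zeb1* (-0.81), and *Cdh2* had 0.82 with *Snai2*. Among all genes, those most like *Cdh1* were *Lefty2* (0.95), *Zscan10* (0.94) and *Trh* (0.94), those most like *Epcam* were *Spint1* (0.95), *Esrp1* (0.94) and *Spint2* (0.93), and those most like *Cldn6* were *Fgf5* (0.96), *Ano9* (0.95) and *Cldn7*. *Cldn7* was nearest to *Wfdc2* (0.96), *Car2* (0.95) and *Zscan10* (0.95), *Crb3* to *Hpdl* (0.94), *Prss8* (0.93) and *Pcsk1n* (0.92), and *Cldn3* to *Elovl7* (0.88), *Kpna3* (0.88) and *Myo5c* (0.87). On the mesenchymal side *Vim* was nearest to *Ak1* (0.97), *Tmsb4x* (0.97) and *Hist1h4h* (0.96), *Snai2* to *Nlgn2* (0.96), *Serpinf1* (0.95) and *Angptl2* (0.95), *Cdh2* to *Serpinh1* (0.93), *Spg20* (0.93) and *Runx1t1* (0.93), and *Zeb1* to *Rab12* (0.89), *Slc35f6* (0.87) and *Wsb1* (0.87). Clusters share libraries and depth, so these are descriptions.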

How the data were processed

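A modified STRT-seq gave 46 libraries of SSC reprogramming, 2 of gPSC-1 and 1 of ESCs, and scTrio-seq2 RNA gave 8 5C and 5 DMSO samples. The authors deposited raw UMI counts, which were not normalized. Per the methods and the submitters' processing notes, UMItools 1.0.0 extracted barcodes and UMIs, STAR 2.7.2b aligned reads to mm10, featureCounts 2.0.0 matched reads with genes and UMItools made the count table, and the authors kept cells with at least 2000 genes and at most 5% mitochondrial reads, and genes found in at least 3 cells. The cell table deposited by the authors gives cluster, batch, library and the percent of mitochondrial UMIs, made with Seurat 3.1.3, and the classes of the scTrio-seq2 cells are those that the authors predicted with scPred, with 48 of 1089 cells left unassigned. Doublets are not stated to have been removed, and no caller was run on cells picked singly by mouth pipette. No 2 cells of the STRT-seq table held identical counts.

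Sums of counts over all cells of a class in a library, where there were 5 or more, gave 82 sums over 9 classes, which were tested in 1 fit with edgeR 4.0.16 in R 4.3.3 (TMM, filterByExpr, quasi-likelihood F test, no covariate, 20030 genes). SE was taken as the log2 fold change divided by the square root of F. The 5C and DMSO samples were fitted apart, and the day slope over SSC1-4 sums. DESeq2 1.42.0, RLE size factors, no filter, sums of at least 10 cells, a stricter threshold, only the classes compared, and leaving out single libraries were the alternatives, and batches and single clusters were added after the data were seen. Same-library sums of different classes deviated together, with a median r of 0.103 over 45 pairs (0.009 to 0.347, 24 over 0.1) against -0.007 between libraries, and a fit with the library as a block was made for that reason. On simulated counts with known changes, the RPG3 against SSC1-4 fit called 77.6% of genes raised by 2 on the log2 scale and 4.26% of those raised by 1. Shares of cells have exact binomial and single-library levels exact Poisson intervals at the 95% level, which cover counting error only, and a count of 0 is given the limit of 3 counts. Levels between genes were not compared, since counts were not divided by length.

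All 10 members are named, and of the other lists at most 2 called genes per list, direction and comparison, with the 3 genes most like each member. The members and lists were chosen with earlier results of these data known. Start site windows are from RefSeq on GRCm38.p6, and 6 of the 10 members matched. The methylation data of the series were not analysed here, and a marker check of the neural-like label is not reported here. Python 3.11, numpy 2.4.6, pandas 2.3.3, scipy 1.17.1 and matplotlib 3.10.9 were used for the other values.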

Additional observations from a re-analysis of the deposited data

Results flagged for a closer look

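In groups of 4 to 10 samples, 8 of 78 groups tested held a sample far from the others by Dixon's test at the 95% level, where chance gives about 1 in 20. In the 7 RPG3 cells of day 12 replicate 2, *Crb3* was at 0.704 CPM against 26.2 to 122 in the other libraries, and *Cldn3* at 1.41 against 6.67 to 19.1. *Zeb1* in RPG3 was at 38.5 CPM in day 18 replicate 5 against 4.92 to 12.2 in the others. *Snai2* in RPG1 was at 1.77 CPM in day 20 replicate 2 against 0 to 0.148. The other 4 were in 5C samples. *Snai2* had its 2 UMIs in 5C replicate 5, at 0.283 CPM over all cells and 2.55 CPM in SSC1-4 cells, and 0 in the other samples. In the SSC1-4 cells of that sample, *Cdh2* was at 0 CPM against 5.41 to 15.1. *Epcam* in SSC1-4 cells was at 147 CPM in 5C replicate 1 against 220 to 305.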

How the results depend on the processing

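Of 712 alternatives run on the 45 pairs of a member and a comparison that were called, 617 kept direction and call, 88 kept the direction and missed the threshold and 7 changed direction, and 18 pairs kept their call in each alternative run. Those were *Cdh1*, *Cldn6* and *Vim* in RPG2, RPG3, RPG4 and RPG3 against RPG1, *Cldn7* in RPG2, RPG3 and RPG4, *Crb3* in RPG2, *Cdh2* in RPG4 against RPG3 and *Vim* in the fibroblast-like class.

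With the library as a replicate block the members called against SSC1-4 were 0 in RPG1 (3 without it), 4 in RPG3 (8), 4 in RPG4 (7), 1 in the fibroblast-like class (3) and 0 in the neural-like class (2), where *Vim* turned to -0.93 and *Snai2* to -0.99. It moved no other count of members by over 1.5 times. Replicate numbers of 5C and DMSO samples share only a number (correlations of 0.316, -0.475, 0.227, 0.382 and -0.490), and with that number as a block 0 members were called over all cells (2 without it) and 0 in SSC1-4 cells (1). No paired analysis was possible for RPG3 cells because the groups share 1 number.

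Within batch B2 alone 0 members were called in RPG1, 0 in the neural-like class (*Vim* -0.96, *Snai2* -1.01) and 3 in RPG3 against RPG1 (7 in all libraries), and with sums per batch and day 0 in the neural-like class and 3 in RPG3 against RPG1. At an adjusted p below 0.01 and a natural-log fold change of at least 1, 5 were called in RPG3 against SSC1-4, 0 and 0 between 5C and DMSO over all cells and in SSC1-4 cells, and 2 in RPG3 cells. Fits of the compared classes alone called 1 in the neural-like class and 2 in RPG4 against RPG3. Single clusters gave 1 in Fibroblast 1, 10 in Fibroblast 2, 0 in Neural 1 (*Vim* -0.62, *Snai2* -1.30), 1 in Neural 2 and 5 in Neural 3. DESeq2 called 2 in 5C SSC1-4 cells and 2 with a day slope, and the slope without the filter on low counts called 1 and without day 0 called 1. *Snai2* in RPG2 went from 3.76 without day 12 replicate 2 to -5.11 without day 14 replicate 6, the sole RPG2 library with UMIs of it. Leaving out each library in turn gave 2 to 3 members in RPG1, 6 to 8 in RPG2, 7 to 8 in RPG3, 6 to 7 in RPG4, 2 to 3 in the fibroblast-like class, 0 to 0 in the early-pluripotency and meiotic classes, 5 to 8 in RPG3 against RPG1 and 1 to 1 in RPG4 against RPG3, and between 5C and DMSO 1 to 3 over all cells, 0 to 2 in SSC1-4 cells and 1 to 6 in RPG3 cells. Besides each 5C and DMSO sample, the libraries left out were those with a sum of an RPG, fibroblast-like, early-pluripotency or meiotic class. The neural-like class and the day slope had no such check. The cause of the moves in these counts and values was not tested, beyond the fewer libraries or genes that an alternative leaves. *Snai2* gave the fewest UMIs of the members in SSC1-4, 162 over 36 sums, and *Cldn7* the next fewest, 1051.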
